A study of Mus musculus with 5 samples.

Results

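Transcripts of 10 genes for effectors of CDC42 were followed in mouse hematopoietic stem cells (HSCs) with and without SYNCRIP, an RNA-binding protein. The genes were Pak1, Pak2, Was, Wasl, Iqgap1, Cdc42ep3, Cdc42ep4, Cdc42se1, Cdc42se2 and Baiap2, chosen by symbol from the 24046 genes of the expression table. The choice set no limit on their values, but earlier results of these data were known when it was made. All 10 were measured, and all 10 were among the 13661 genes tested, which had a normalized read count of at least 10 in at least 2 libraries. CDC42 is a small GTPase that cycles between a GTP-bound, active state and a GDP-bound, inactive state. In the active state it binds effector proteins, many of them through a short CRIB motif, and these carry the signal to actin filaments, septins and kinase cascades. In blood-forming cells the switch is known for its part in cell polarity, adhesion, migration and the lodging of stem cells in the marrow.

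Bulk RNA sequencing had been carried out on 5 libraries. The WT group held 3 libraries from Syncrip f/f donors without the Mx1-Cre transgene (WT 1, WT 2 and WT 3), and the KO group 2 libraries from Syncrip f/f donors carrying Mx1-Cre (KO 2 and KO 3), in which Cre excises the floxed Syncrip alleles (Syncrip Δ/Δ). Donors were 6 to 8 weeks old, and their whole marrow was transplanted into lethally irradiated congenic CD45.1 female recipients of the same age. Both groups received polyinosinic:polycytidylic acid (pIpC), an inducer of interferon, 6 weeks after transplantation, and HSCs were sorted 3 weeks later, at 9 weeks. The sort took donor-derived cells without lineage markers that carried Sca1, c-Kit and CD150 and lacked CD48. The Mx1 promoter answers to interferon and is not limited to stem cells, so in KO recipients other donor-derived blood cells could lose Syncrip as well, while the stroma of the recipients was not of donor origin. The WT group carried no Cre, so effects of Cre itself cannot be told apart from those of the deletion. The sources used here do not say how many animals went into a library, and p-values measure the spread between these libraries only.

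Syncrip, the targeted gene, showed normalized read counts of 1944, 1440 and 1794 in WT 1 to WT 3 against 294 and 343 in KO 2 and KO 3, so that the KO mean was 18.5% of the WT mean. Depth was 21748781 to 22779536 reads in WT libraries, 18308876 in KO 2 and 12539599 in KO 3, so it moved with genotype, and KO 3 was the shallowest. KO 3 also stood apart from the other libraries: across tested genes its log2 values correlated with WT libraries at 0.882 to 0.912 and with KO 2 at 0.919. KO 2 was closer to WT libraries, at 0.932 to 0.947, than to KO 3, and WT libraries reached 0.950 to 0.958 among themselves, a description over genes that share a library. Transcripts of Kit (8007 to 10741), Slamf1, which encodes CD150 (195 to 522), and Ly6a, which encodes Sca1 (279 to 857), were present in every library. Cd48, whose protein the sort excluded, was also present, at 696, 601 and 768 in WT 1 to WT 3, 459 in KO 2 and 191 in KO 3, above Slamf1 in every library except KO 3. The 12 HSC genes took 0.146%, 0.121% and 0.0820% of reads in WT 1 to WT 3, 0.112% in KO 2 and 0.219% in KO 3. RNA of other cell types was not even between libraries: all 6 brown adipocyte genes and 11 of 12 adipocyte genes were highest in KO 2, where they took 0.0607% and 0.110% of reads, against at most 7.46e-05% and 0.00416% in any other library. Genes of neutrophils and myeloid cells (11 of 12 matched) took 6.20% to 7.49% of reads in WT, 5.49% in KO 2 and 2.65% in KO 3. Megakaryocyte genes (6 of 6) took 0.0287% to 0.0510% in WT, 0.0596% in KO 2 and 0.138% in KO 3. Their part in the results on Cdc42 effectors was not tested, and in bulk samples fewer cells of a type and less RNA per cell cannot be told apart.

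The sequences around the starts of 4 effector genes are shown because these genes carry the main contrasts: Pak1 and Iqgap1 were among the members with the lowest KO levels relative to WT, and Was and Wasl encode related proteins whose transcripts stood far apart. They are RefSeq windows on GRCm38.p6, from 250 bases before to 50 after the annotated start, and 9 of 10 effectors had an entry (12 entries in all). Each is written in the direction of its gene, with capitals for the GC box, searched as GGGCGG on both strands, and for the ETS core, searched as CCGGAAG on both strands. The Pak1 window lay at chr7:97788291-97788590 (plus strand) and the Iqgap1 window at chr7:80803282-80803581 (minus strand). The Was window lay at chrX:8090442-8090741 (minus strand) and the Wasl window at chr6:24664946-24665245 (minus strand).
Pak1: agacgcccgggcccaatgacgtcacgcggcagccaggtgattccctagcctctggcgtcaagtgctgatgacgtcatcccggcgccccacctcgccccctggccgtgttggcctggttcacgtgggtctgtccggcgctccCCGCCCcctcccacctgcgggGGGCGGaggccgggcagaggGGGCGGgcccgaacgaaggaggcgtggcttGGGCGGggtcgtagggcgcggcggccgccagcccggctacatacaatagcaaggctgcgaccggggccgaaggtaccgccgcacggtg
Iqgap1: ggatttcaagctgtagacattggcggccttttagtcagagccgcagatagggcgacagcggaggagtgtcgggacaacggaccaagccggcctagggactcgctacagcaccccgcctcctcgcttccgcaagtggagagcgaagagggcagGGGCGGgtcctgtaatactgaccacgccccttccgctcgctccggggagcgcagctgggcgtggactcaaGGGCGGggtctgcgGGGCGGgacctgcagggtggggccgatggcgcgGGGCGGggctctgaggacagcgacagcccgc
Was: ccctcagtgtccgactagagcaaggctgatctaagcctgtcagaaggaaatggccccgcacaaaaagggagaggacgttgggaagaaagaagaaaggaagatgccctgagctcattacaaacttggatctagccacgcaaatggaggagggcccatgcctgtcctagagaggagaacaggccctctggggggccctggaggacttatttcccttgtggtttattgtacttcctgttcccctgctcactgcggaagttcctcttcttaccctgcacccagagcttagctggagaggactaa
Wasl: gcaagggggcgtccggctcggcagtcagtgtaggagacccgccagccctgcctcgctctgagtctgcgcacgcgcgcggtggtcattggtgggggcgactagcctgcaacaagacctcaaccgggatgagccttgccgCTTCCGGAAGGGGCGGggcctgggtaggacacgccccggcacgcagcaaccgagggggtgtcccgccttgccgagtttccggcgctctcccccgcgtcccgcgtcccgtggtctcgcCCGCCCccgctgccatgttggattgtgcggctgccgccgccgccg

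The Was window held 53.3% G and C and 5 CpG dinucleotides, near the medians of all 32851 promoter windows of this length (52.7% and 7). The Wasl window held 72.3% G and C, 36 CpG dinucleotides and 2 GC boxes, the Pak1 window shown 73.0%, 35 and 4, and the Iqgap1 window 68.3%, 28 and 4. A second annotated start of Pak1 (chr7:97842689-97842988, not shown) held 53.7% G and C, 10 CpG dinucleotides and 4 GC boxes. A GC box was present in 35.7% of all windows. The ETS core matched 2 times in Wasl, once on each strand, where the matches overlap each other, and it was present in 8.86% of all windows. The CArG box, the motif named for serum response factor, matched in none of the 12 windows of these effectors and in 1.63% of all windows. A match or its absence describes letters in these windows only.

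A second set of sequences is shown because SYNCRIP binds RNA: the letters ACUUAG and UAGG, taken from the study's motif search, were looked for on the sense strand of the longest GENCODE M21 transcript of each gene (ACTTAG and TAGG in DNA letters). ACUUAG was present in 3 of the 10 effectors, Iqgap1, Cdc42se2 and Baiap2, and in 40.0% of tested genes with a transcript. The windows of 30 bases around these matches, with ACTTAG in capitals, start at base 5498 of the Iqgap1 transcript, base 2086 of the Cdc42se2 transcript and base 2992 of the Baiap2 transcript, counted from the transcript's 5′ end.
Iqgap1: ggtatttgttttACTTAGcaataagaatgg
Cdc42se2: cttctgaacataACTTAGcagtagggtgga
Baiap2: gaacaggacaggACTTAGggtcctgggggg

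UAGG, a shorter motif, was present in all 10 effectors and in 95.3% of tested genes with a transcript. Among the effectors its density was highest in Pak2, with 18 matches or 3.14 per kb, and lowest in Pak1, with 0.979 per kb, beside a median of 1.92 per kb over tested genes. The members with ACUUAG did not share a direction: Iqgap1 was lower in both KO libraries, while the KO and WT values of Cdc42se2 and Baiap2 overlapped.

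The question put to these data was whether loss of Syncrip changed the RNA of CDC42 effectors. Pak1, Pak2 and Iqgap1 stood at 65.1% to 69.5% of their WT means, and for each of them both KO values lay below all WT values. Cdc42ep3 was the only member with both KO values above all WT values, at 114% of its WT mean. The other 6 members overlapped between the groups. limma called none of the 10 past the threshold, an adjusted p under 0.05, where it called 0.00732% of tested genes, which was Syncrip alone; at an unadjusted p under 0.05 there were 3 members beside a background of 27.8%, and edgeR also called none of the 10 (background 0.0146%). DESeq2 on the recovered reads called 2 members, Pak2 and Iqgap1, both lower, beside a background of 17% in either direction and 8.52% lower. Of all tested genes, 23.2% had both KO values below all WT values and 23.9% had both above, so the 3 and 1 members counted here are to be read beside shares of that size. The effectors' values by library, with Cdc42 and Syncrip, are plotted here.

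**Figure D1:**
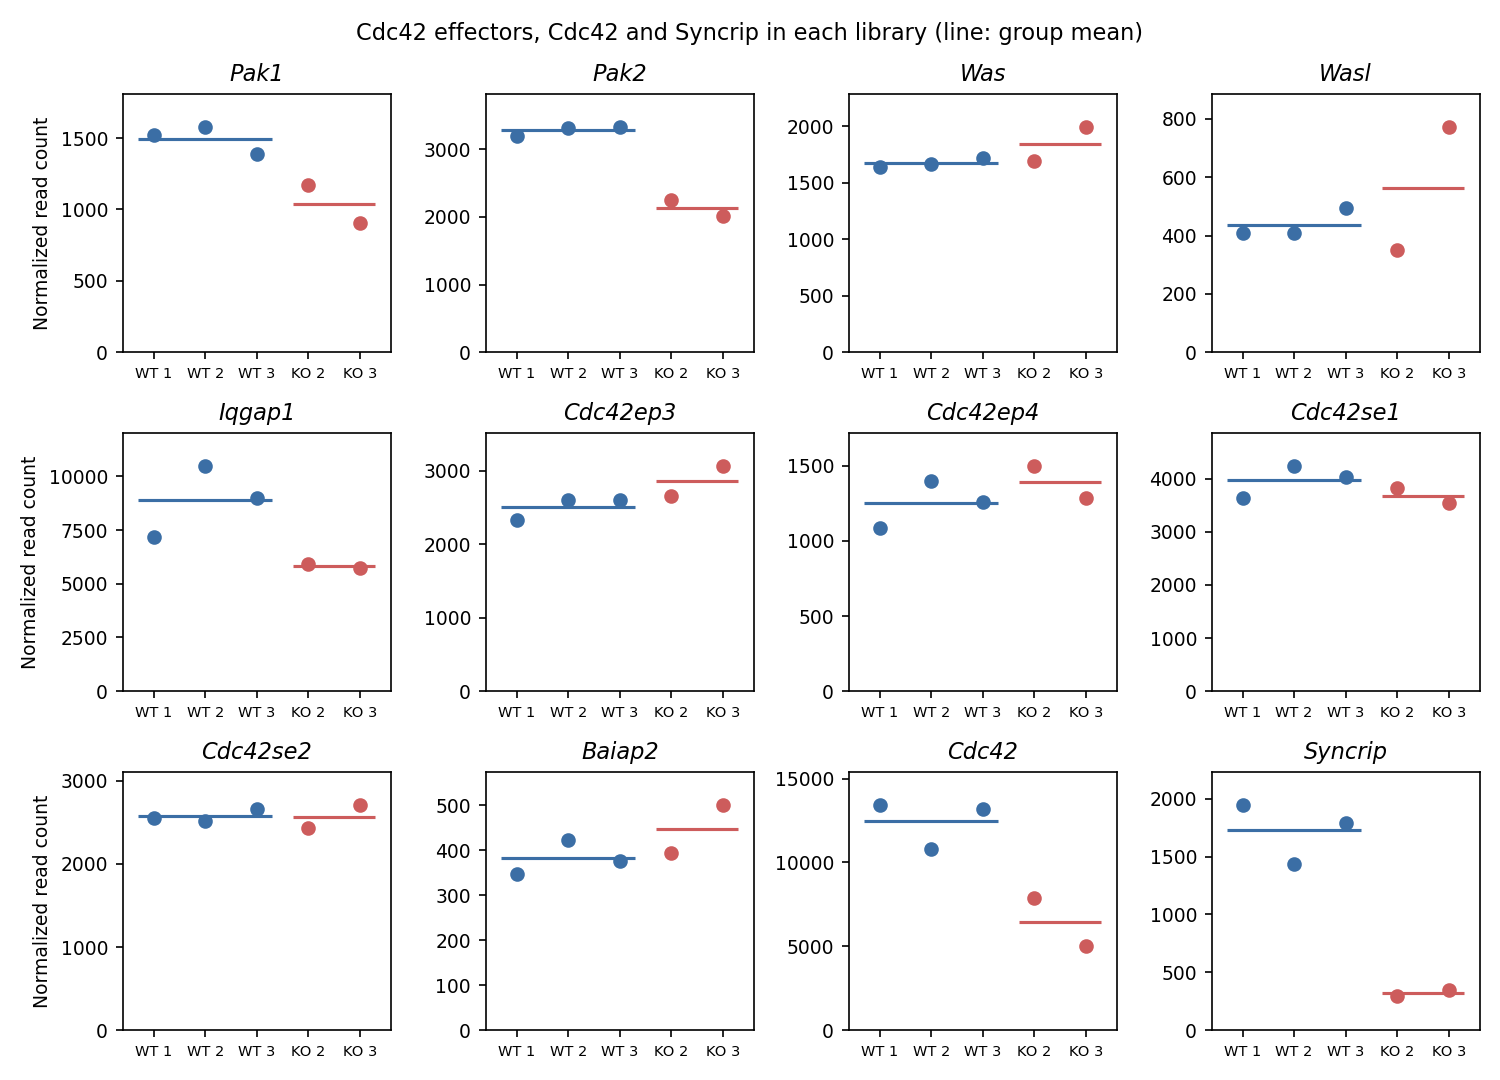
Normalized read count (vertical axes, from 0, scaled per gene) of the 10 Cdc42 effectors, Cdc42 and Syncrip in each of 3 WT libraries (blue) and 2 KO libraries (red); lines are group means. For Pak1, Pak2, Iqgap1, Cdc42 and Syncrip both red points lie below every blue point, and for Cdc42ep3 both lie above.

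The p21-activated kinases PAK1 and PAK2 are serine/threonine kinases that bind active CDC42 and RAC and phosphorylate regulators of actin. Pak2 (chromosome 16, 32016290 to 32079342, minus strand; GENCODE M21, GRCm38, as for all positions here) showed normalized read counts of 3196, 3315 and 3328 in WT 1 to WT 3 against 2251 and 2017 in KO 2 and KO 3. The WT values lay close together, and both KO values lay far under them. WT libraries averaged 3280 ± 72.7 (SD, n = 3) and KO libraries 2134 ± 166 (SD, n = 2). On the log2(normalized read count + 1) scale the difference, KO minus WT, was -0.62 (SE 0.16, 95% interval -1.0 to -0.25, limma adjusted p = 0.0842), and 18.9% of tested genes had a lower value. DESeq2 gave an adjusted p of 0.00628.

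Pak1 (chromosome 7, 97788541 to 97912381, plus strand) showed normalized read counts of 1525, 1576 and 1387 in WT 1 to WT 3, against 1172 in KO 2 and 907 in KO 3. Both KO values were under the lowest WT value, and KO 3, with 597 reads behind its value, was the lower of them. WT libraries averaged 1496 ± 97.6 (SD, n = 3) and KO libraries 1039 ± 188 (SD, n = 2), with a log2 difference of -0.54 (SE 0.20, 95% interval -0.99 to -0.08, limma adjusted p = 0.131). DESeq2 did not call Pak1 either (adjusted p = 0.0722). Taken singly against the WT mean on the log2 scale, KO 2 stood at -0.35 and KO 3 at -0.72 for Pak1, while for Pak2 they stood at -0.54 and -0.70. Without KO 2, limma called both kinases, Pak1 at an adjusted p of 0.0424 and Pak2 at 0.0308, with the lone KO library assumed to vary like the WT libraries, and in that fit 22.1% of all tested genes were called, 12.2% lower. Without KO 3, their adjusted p-values were 0.453 and 0.287.

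Per kb of the longest annotated transcript, Pak2 was the higher of the kinases in WT HSCs, at 571 ± 12.7 normalized reads per kb (SD, n = 3) against 488 ± 31.8 for Pak1. Which isoforms were expressed was not tested, and another length could change this order. The ratio of Pak2 to Pak1, both per kb, was 1.12, 1.12 and 1.28 in WT 1 to WT 3 and 1.03 and 1.19 in KO 2 and KO 3. The ratios of the groups overlapped, so a shift between the kinases was not seen beyond the spread of these libraries.

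IQGAP1 is a large scaffold protein that binds active CDC42, actin filaments and calmodulin. Its gene (chromosome 7, 80711583 to 80825974, minus strand) showed normalized read counts of 7191, 10476 and 8990 in WT 1 to WT 3 against 5935 and 5753 in KO 2 and KO 3. The KO libraries were close to each other, and the spread lay in the WT libraries, of which WT 1 came nearest to KO. WT libraries averaged 8886 ± 1645 (SD, n = 3) and KO libraries 5844 ± 129 (SD, n = 2), with a log2 difference of -0.59 (SE 0.20, 95% interval -1.04 to -0.14, limma adjusted p = 0.111). DESeq2 called it, with an adjusted p of 0.0344. Without KO 2 the difference was -0.61 and without KO 3 it was -0.57, with limma adjusted p-values of 0.105 and 0.356.

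WASP, encoded by Was, and N-WASP, encoded by Wasl, open on binding active CDC42 and start branched actin through the ARP2/3 complex. WASP is the form of blood cells, and N-WASP is widespread. Was (chromosome X, 8081453 to 8090498, minus strand) showed normalized read counts of 1635, 1661 and 1714 in WT 1 to WT 3 against 1695 and 1989 in KO 2 and KO 3. KO 2 lay within the narrow WT range and KO 3 above it. The log2 difference was 0.14 (SE 0.18, 95% interval -0.27 to 0.54, limma adjusted p = 0.632), with a sign that turned to -0.27 when a trend on transcript length and GC content was removed.

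Wasl (chromosome 6, 24613805 to 24665009, minus strand) had counts of 407, 407 and 495 in WT 1 to WT 3, 352 in KO 2 and 772 in KO 3. The KO libraries lay on opposite sides of all WT values, so the mean of the group describes neither of them. The log2 difference was 0.26 (SE 0.34, 95% interval -0.52 to 1.05, limma adjusted p = 0.642), and it was -0.31 without KO 3 and 0.70 once the length and GC trend was removed. Per kb of transcript, Was exceeded Wasl 7.93 ± 0.703 times in WT (SD, n = 3), and the ratio was 9.93 in KO 2 and 5.31 in KO 3. The KO ratios thus lay on either side of the WT range of 7.12 to 8.40.

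The Borg proteins CDC42EP3 and CDC42EP4 bind active CDC42 and organize septin filaments. Cdc42ep3 (chromosome 17, 79333727 to 79355091, minus strand) had counts of 2329, 2601 and 2595 in WT 1 to WT 3 against 2651 and 3060 in KO 2 and KO 3. KO 2 exceeded the highest WT value by little, and KO 3 by more. The log2 difference was 0.19 (SE 0.17, 95% interval -0.21 to 0.58, limma adjusted p = 0.4996), positive under all 16 alternatives, from 0.08 to 0.34. Cdc42ep4 (chromosome 11, 113726850 to 113751881, minus strand) had counts of 1088, 1400 and 1262 in WT against 1498 and 1285 in KO 2 and KO 3. Here KO 2 was the higher, and KO 3 lay inside the WT range. The log2 difference was 0.16 (SE 0.20, 95% interval -0.30 to 0.61, limma adjusted p = 0.627), with a sign that turned to -0.46 when the length and GC trend was removed.

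CDC42SE1 and CDC42SE2 are small membrane-bound proteins with a CRIB motif, also known as SPECs, which bind active CDC42. Cdc42se1 (chromosome 3, 95228732 to 95236409, plus strand) had counts of 3640, 4234 and 4037 in WT 1 to WT 3 against 3824 and 3537 in KO 2 and KO 3. KO 2 was inside the WT range and KO 3 just under it, with a log2 difference of -0.11 (SE 0.17, 95% interval -0.49 to 0.27, limma adjusted p = 0.695; -0.32 with the length and GC trend removed). Its locus overlaps Mllt11 on the opposite strand, and the use of strand in counting was not given in the sources used here, so reads of the pair may not be separable. Cdc42se2 (chromosome 11, 54717456 to 54787675, minus strand) had counts of 2552, 2518 and 2660 in WT against 2428 and 2706 in KO 2 and KO 3. These values lay close together, with KO 2 just under and KO 3 just over the WT range. The log2 difference was -0.0069 (SE 0.17, 95% interval -0.38 to 0.37, limma adjusted p = 0.981), and it turned positive, to 0.02, with upper-quartile scaling.

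BAIAP2, also called IRSp53, bends the membrane through its IMD domain and binds CDC42 in filopodia. Baiap2 (chromosome 11, 119942763 to 120006782, plus strand) had counts of 347, 423 and 376 in WT 1 to WT 3, 394 in KO 2 and 500 in KO 3. KO 2 lay within the WT range and KO 3 above it. The log2 difference was 0.22 (SE 0.25, 95% interval -0.36 to 0.80, limma adjusted p = 0.591), with a sign that turned to -0.35 when the length and GC trend was removed. For the 7 members other than Pak1, Pak2 and Iqgap1, the 95% intervals all held 0, and they do not show that these genes were unaffected: that of Wasl reaches past a log2 difference of 1.

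**Figure D2:**
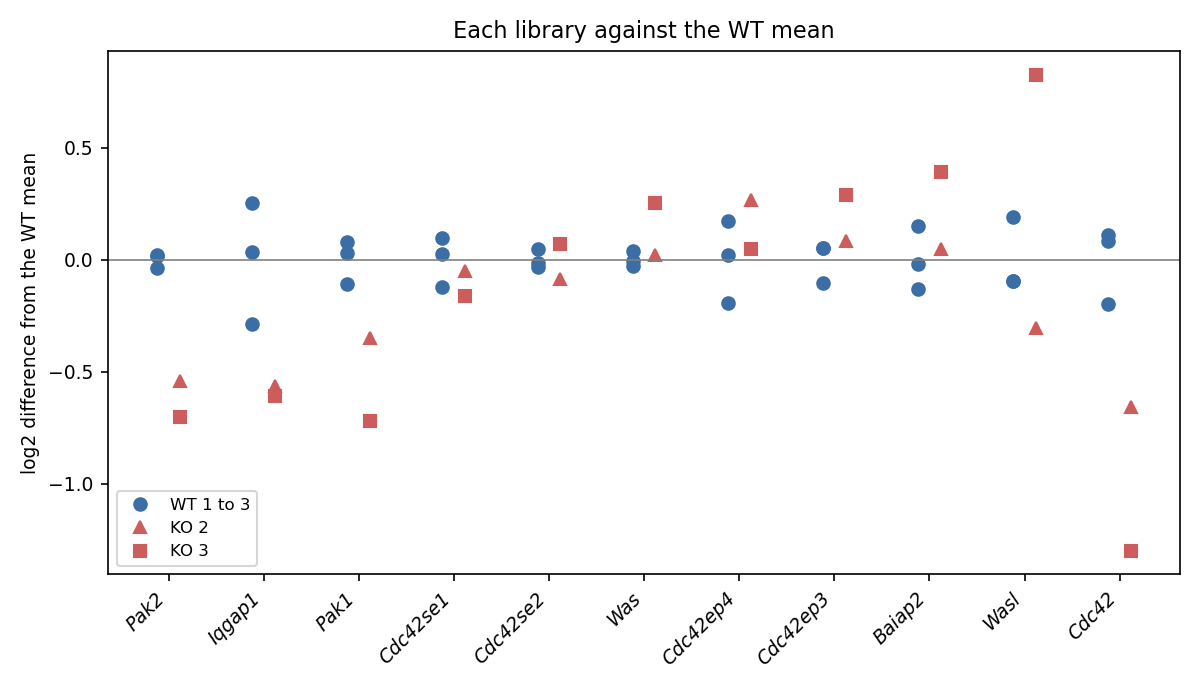
Log2 difference of each library from the WT mean (vertical axis) for each effector and Cdc42: circles are the 3 WT libraries, triangles KO 2 and squares KO 3. The KO points of Pak2, Iqgap1 and Pak1 lie together below 0, while those of Wasl lie at -0.31 and 0.83.

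Read by library, as plotted by the differences from the WT mean, the effectors lay on both sides of 0 in each KO library. The median log2 difference from the WT mean over the 10 members was -0.07 in KO 2 and 0.06 in KO 3. The same measure for each WT library against the other WT libraries ran from -0.15 in WT 1 to 0.10 in WT 2, so both KO medians lay inside the spread of WT libraries. In the comparison of groups the median over the members was 0.07, beside 0.02 over all tested genes, and 5 members were above 0 and 5 below, where Cdc42se2 counts as below but flips with upper-quartile scaling. The lower and upper quartiles of all tested genes were -0.46 and 0.49, and among the 10 effectors only Pak1, Pak2 and Iqgap1 lay outside them.

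The order of levels within the effectors was read per kb of the longest annotated transcript, since longer transcripts give more reads. In WT HSCs Cdc42se1 stood highest, at 1415 ± 108 normalized reads per kb (SD, n = 3), followed by Iqgap1 at 1194 ± 221 and Cdc42ep3 at 1107 ± 68.5. The ranges of Cdc42se1 and Iqgap1 overlapped, as did those of Iqgap1 and Cdc42ep3, so the order of these neighbours is within their spread. Cdc42se2 at 840 ± 24.2 per kb, Was at 790 ± 19.0, Pak2 at 571, Pak1 at 488 and Cdc42ep4 at 367 ± 45.9 followed, each with a WT range apart from that of its neighbours. Wasl at 100.3 ± 11.7 per kb and Baiap2 at 95.4 ± 9.51 were lowest and overlapped each other. In KO libraries the mean level per kb of Iqgap1 was 785 ± 17.3 (SD, n = 2), under that of Cdc42ep3 (1261 ± 128) and near those of Was (871 ± 98.5) and Cdc42se2 (836 ± 64.1), and its order against Cdc42se2 differed between the KO libraries. The ratio of Cdc42ep3 to Cdc42ep4 per kb was 3.03 ± 0.218 in WT and 3.12 ± 0.650 in KO, and that of Cdc42se1 to Cdc42se2 was 1.69 ± 0.142 in WT and 1.58 ± 0.207 in KO. Neither ratio differed beyond the spread between libraries.

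Cdc42, the GTPase that all of these proteins bind, showed normalized read counts of 13414, 10825 and 13164 in WT 1 to WT 3 against 7865 and 5042 in KO 2 and KO 3. Both KO values lay below all WT values (log2 difference -0.98, SE 0.22, limma adjusted p = 0.0815; DESeq2 adjusted p = 0.00312). Removing the length and GC trend left a difference of -0.43 (limma adjusted p = 0.209). The 3 effectors with the pattern most like that of Cdc42 over the 5 libraries, by the root mean square difference of centred log2 values, were Pak2 (0.261), Pak1 (0.280) and Iqgap1 (0.382), and Wasl was the least like (0.834). This is a description over 5 libraries that share their depth and composition. Per kb of transcript, the level of Pak2 relative to Cdc42 was 0.0875, 0.112 and 0.0928 in WT and 0.105 and 0.147 in KO 2 and KO 3, which overlap. The level of Was relative to Cdc42 was 0.122, 0.153 and 0.130 in WT and 0.215 and 0.393 in KO 2 and KO 3. These ratios did not overlap, but Was and Cdc42 differ in G and C (55.8% and 42.6%), and with that trend removed their log2 differences were -0.27 and -0.43.

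Over all tested genes the difference between groups moved with base composition, and the members were therefore set beside genes of like composition. Tested genes with a matched transcript (13015 of 13661) were put into 10 bins by the GC content of the longest transcript. The median log2 difference ran from -0.76 in the bin poorest in G and C to 0.73 in the richest. Pak2 (43.8% G and C, log2 difference -0.62) lay near the median of its bin, -0.53. Wasl (43.7%, 0.26) was in the same bin and lay on the other side of 0. Pak1 (47.3%, -0.54) lay below its bin's median of -0.21, and Iqgap1 (49.3%, -0.59) below its bin's median of -0.05. Was (55.8%, 0.14) and Baiap2 (57.7%, 0.22) lay under the median of their bin, 0.46, and Cdc42ep4 (58.4%, 0.16) under that of its own, 0.73. Cdc42se1 (52.9%, -0.11) also lay under its bin's median of 0.20. Cdc42ep3 (47.9%, 0.19) and Cdc42se2 (47.7%, -0.0069), in the bin of Pak1, lay above its median of -0.21.

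**Figure D3:**
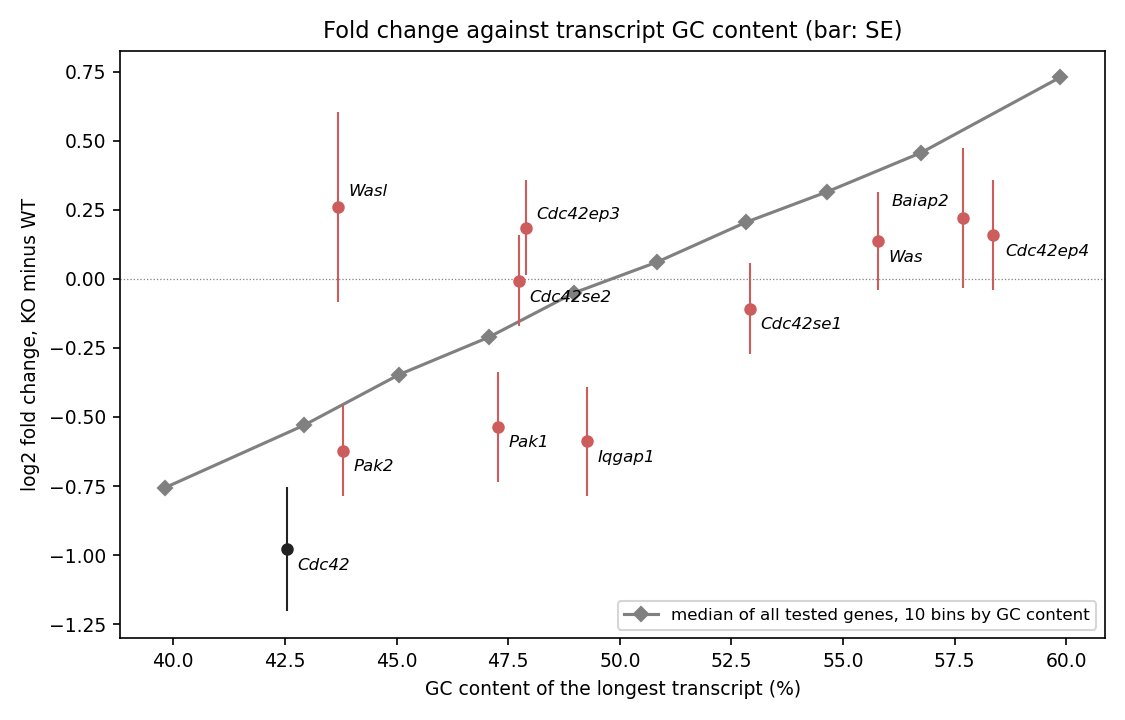
Log2 difference, KO minus WT (vertical axis), against the GC content in percent of the longest transcript (horizontal axis) for the 10 effectors (red) and Cdc42 (black), with SE bars; grey diamonds are medians of all tested genes in 10 bins. The grey line climbs from -0.76 to 0.73, Pak2 lies close to it, and Iqgap1 and Pak1 lie under it.

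After each library was corrected for a linear trend on transcript length (log2) and GC content, Iqgap1 stood at -0.57 (limma adjusted p = 0.186), almost as without the correction. Pak1 moved from -0.54 to -0.35 (limma adjusted p = 0.325) and Pak2 from -0.62 to -0.21 (limma adjusted p = 0.456). Syncrip, the deleted gene (37.0% G and C), moved from -2.43 to -1.53 (limma adjusted p = 0.138). The correction thus also shrank a difference known from the design, and corrected values are not to be read as the truer ones. The median over the 10 members moved from 0.07 to -0.30, while that over all genes with a transcript was -0.01. What the trend itself comes from was not tested. Over all 16 alternatives the 3 members below WT kept their sign, with log2 differences of -0.72 to -0.35 for Pak1, -0.70 to -0.21 for Pak2 and -0.73 to -0.46 for Iqgap1.

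**Figure D4:**
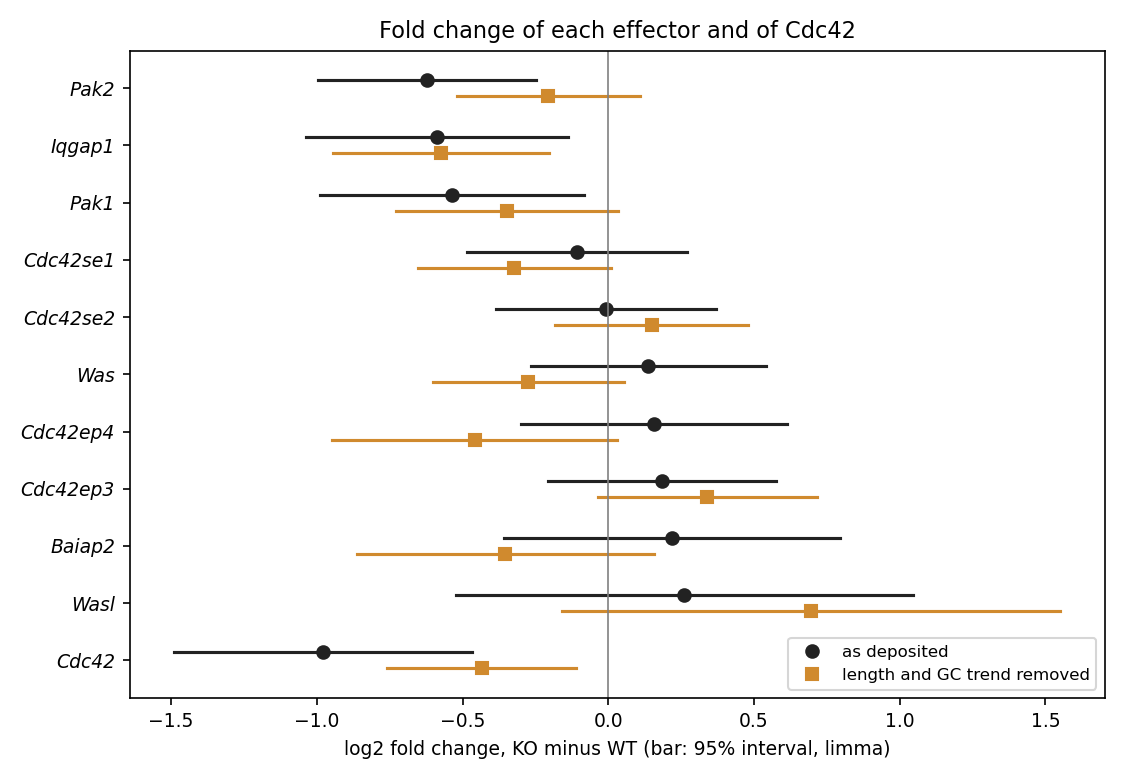
Log2 difference, KO minus WT (horizontal axis), with 95% limma intervals for each effector and Cdc42, from the deposited values (black circles) and after a trend on transcript length and GC content was removed (orange squares). The interval of Iqgap1 excludes 0 both ways, and those of Pak1 and Pak2 reach 0 after the correction.

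Other genes of the pathway were taken from 4 lists by role, 101 genes of which 96 were matched and 91 tested, Cdc42 among them. limma called none of the 91. At an unadjusted p under 0.05 there were 10 lower and 10 higher of 91, beside backgrounds of 14.5% lower and 13.3% higher. DESeq2 called 12 of the 91, 5 lower and 7 higher (background 8.52% and 8.51%), while edgeR called none (background 0.0146%). Both KO values were below all WT values for 19 of the 91 and above for 21, beside the 23.2% and 23.9% given above. Shares near the background are no result about the pathway.

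Other CDC42 effectors, which hold further PAK kinases, Borg proteins, PAR6 polarity proteins and mixed-lineage kinases, formed the first list (28 listed, 24 matched, 22 tested). Both KO values were above all WT values for 10 and below for 2 (Cdc42bpa and Iqgap2), beside 23.9% and 23.2% of all tested genes, and the median log2 difference was 0.81, which was 0.17 with the length and GC trend removed. DESeq2 called 3 higher, beside 8.51%, and none lower. Cdc42ep5 (36.0 and 47.1 in KO, against 1.67 to 7.81 in WT), Baiap2l1 (14.4 and 22.8 in KO, against 1.71 to 12.2 in WT) and Cdc42ep1 (0 in WT 1, WT 3 and KO 3) would not have passed the filter on their WT values. Among the other 19 genes, a restriction chosen after the data were seen, 8 were above and 2 below, with a median of 0.56. Pak4, a group II PAK kinase, had counts of 504, 514 and 607 in WT 1 to WT 3 against 851 and 1261 in KO 2 and KO 3. Its log2 difference was 0.94 (SE 0.25, limma adjusted p = 0.0829; DESeq2 adjusted p = 0.00684), in the opposite direction to Pak1 and Pak2, and it was 0.20 with the trend removed. Map3k11, which encodes the mixed-lineage kinase MLK3, had counts of 2438, 3436 and 2665 in WT against 4023 and 6963 in KO 2 and KO 3. The KO 3 value was far above the rest (log2 difference 0.91, SE 0.26, limma adjusted p = 0.0900; DESeq2 adjusted p = 0.0116), and 0.08 remained with the trend removed. Map3k10 (log2 difference 1.08, limma adjusted p = 0.181), its relative MLK2, rested on KO 3, with 1332 there and 372 in KO 2 beside 285 to 365 in WT. DESeq2 called it (adjusted p = 0.0332), and with the trend removed its difference turned to -0.014. Pard6b, a polarity protein that links CDC42 to atypical protein kinase C, had counts of 53.1 to 135 in WT and of 161 and 176 in KO (log2 difference 1.01, limma adjusted p = 0.196; 0.73 with the trend removed).

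Of the GTPases and their regulators (35 listed and tested), both KO values were below all WT values for 12 and above for 4, beside 23.2% and 23.9% of all tested genes. DESeq2 called 4 lower and 2 higher, beside 8.52% and 8.51%, and the median log2 difference was -0.10, which was -0.25 with the trend removed. Dock11, an exchange factor that loads CDC42 with GTP, had counts of 2195, 2203 and 1947 in WT 1 to WT 3 against 1109 and 949 in KO 2 and KO 3. Both KO libraries held about the same low level, with a log2 difference of -1.04 (SE 0.18, limma adjusted p = 0.0815; DESeq2 adjusted p = 4.5e-05) that was -0.47 with the trend removed. Arhgef6, the exchange factor alpha-PIX, which binds PAK kinases, had counts of 3210, 3078 and 3411 in WT against 2039 and 1227 in KO 2 and KO 3. It was lower in both, more so in KO 3 (log2 difference -1.03, SE 0.23, limma adjusted p = 0.0815; DESeq2 adjusted p = 0.00373). Fgd4, a CDC42 exchange factor that binds actin, had counts of 433 to 624 in WT, 273 in KO 2 and 91.1 in KO 3 (log2 difference -1.78, limma adjusted p = 0.0818; DESeq2 adjusted p = 0.00843). Its relative Fgd1 stood the other way, with 136 to 255 in WT, 351 in KO 2 and 685 in KO 3 (log2 difference 1.25, limma adjusted p = 0.105; DESeq2 adjusted p = 0.0244). All 4 genes kept these signs with the length and GC trend removed, at -0.47, -0.64, -0.88 and 0.60.

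Partners and relatives of WASP (18 listed, 17 matched, 14 tested) had both KO values below all WT values in 4 genes and above in none. Btk, a Tec-family kinase that acts on WASP, had 1756 to 2195 in WT and 1651 and 1025 in KO 2 and KO 3 (log2 difference -0.59, limma adjusted p = 0.156). Wipf1, which encodes WIP, the protein that shields WASP from breakdown, had 1312 to 1431 in WT and 1033 and 1223 in KO, with a log2 difference of -0.28 (limma adjusted p = 0.351). Hcls1, the cortactin relative of blood cells, had 2708 to 2947 in WT and 2622 and 2696 in KO, a log2 difference of -0.10 (limma adjusted p = 0.717). With the trend removed the differences were -0.36 for Btk, -0.28 for Wipf1 and -0.47 for Hcls1, and the median of the list went from -0.10 to -0.26. The named genes were chosen for KO values outside the WT range, and 4 of 14 is to be read beside the 23.2% of all tested genes on that side.

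Partners and substrates of PAK kinases (20 listed and tested) had both KO values above all WT values in 7 genes and below in 1, beside 23.9% and 23.2% of all tested genes. DESeq2 called 2 higher, beside 8.51%, and none lower. Git1, a scaffold that joins PIX and PAK at focal adhesions, had counts of 789, 1034 and 788 in WT 1 to WT 3, 1607 in KO 2 and 3930 in KO 3. Both KO values were above all WT values, with KO 3 far higher (log2 difference 1.54, SE 0.35, limma adjusted p = 0.0815; DESeq2 adjusted p = 0.000442), and the difference was 0.89 with the trend removed. Limk1, the kinase that PAK1 activates to inhibit cofilin, had counts of 688, 378 and 576 in WT and of 850 and 981 in KO (log2 difference 0.78, SE 0.29, limma adjusted p = 0.128). Ssh1, the phosphatase that undoes this step, had 219 to 272 in WT and 367 and 448 in KO (log2 difference 0.76, SE 0.27, limma adjusted p = 0.125). Bad, a death-promoting BCL-2 family protein that PAK kinases phosphorylate, had 744 to 828 in WT and 1078 and 1390 in KO (log2 difference 0.65, SE 0.21, limma adjusted p = 0.104; DESeq2 adjusted p = 0.0266). With the trend removed the differences of these genes were 0.22, 0.52 and 0.15. The lists are shown beside the 10 effectors in the plot by role.

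**Figure D5:**
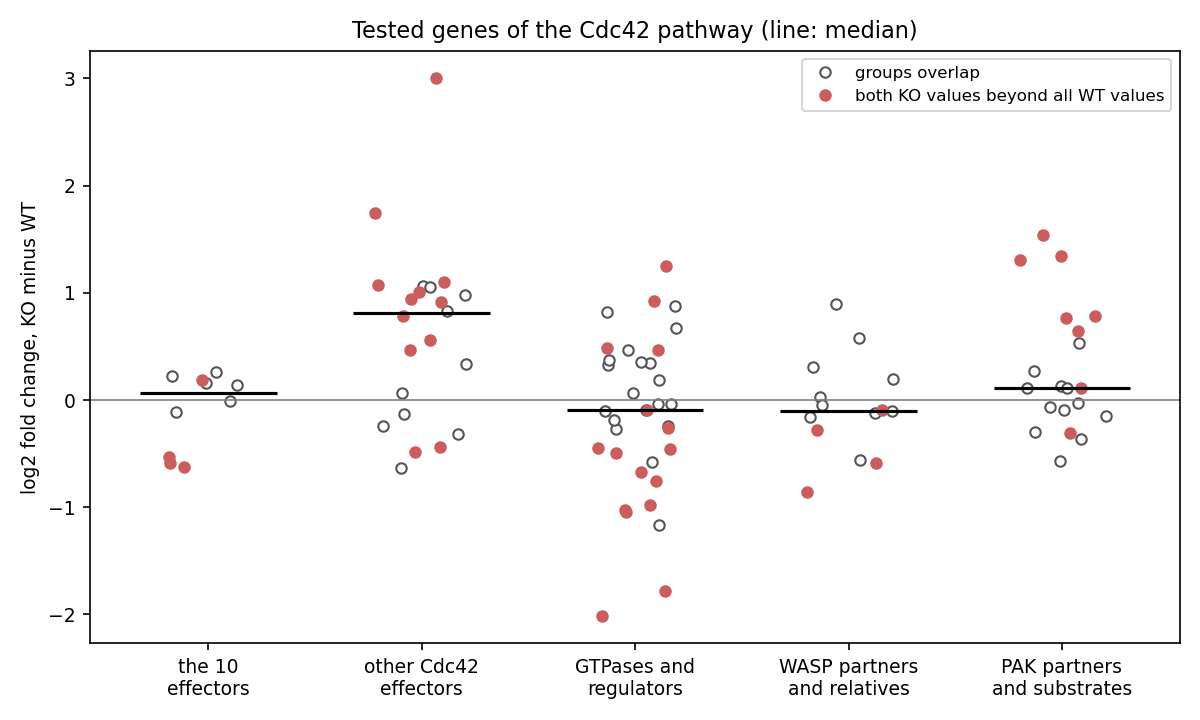
Log2 difference, KO minus WT (vertical axis), of each tested gene among the 10 effectors and in 4 pathway lists (horizontal axis); lines are medians, filled points have both KO values beyond all WT values, and open points overlap. The median of other Cdc42 effectors lies at 0.81 (0.56 without the 3 genes that pass the filter only with KO values) and those of the remaining groups between -0.10 and 0.11.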

How the data were processed

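Bulk RNA from sorted HSCs of 3 WT and 2 KO libraries was measured. Per the submitters' processing notes, the authors used STAR, featureCounts and DESeq2 on mm10; versions, annotation and the use of strand were not given in the sources used here. The authors deposited a signal per gene symbol, read counts divided by a size factor of each library. Dividing each column by its smallest step gave back whole reads for 100% of values. The tolerance was 0.01 of a read at low counts and grew with the count at high ones. The authors' own comparison (log2 fold changes and p-values) was not used.

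The 13661 genes reaching 10 in 2 or more libraries were tested with limma 3.58.1 in R 4.3.3 (lmFit, then eBayes with trend) on log2(value + 1), a scale that understates changes of low genes, with Benjamini-Hochberg adjustment over all of them. edgeR 4.0.16 and DESeq2 1.42.0 on the recovered reads were alternatives, as were other pseudocounts, filters and scalings, array weights, the replicate block, leaving out each library, and removal of a length and GC trend (16 in all). Scripts were tested on simulated data. Every pair of libraries differed beyond counting noise, by a chi-square of at least 33.8 per degree of freedom. Depth limits low genes, and PCR copies were not removed by molecular identifiers.

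The members and lists were chosen with earlier results of these data known. Named genes are the 10 members, Cdc42, Syncrip and, in each pathway list, up to 4 genes with the largest differences among those with a mean of at least 100 with both KO values outside the WT range. A gene that this rule names is not reported here. Cdc42ep5, Baiap2l1, Cdc42ep1, Cdc42bpa, Iqgap2 and Fgd5 were singled out after their values were seen. Positions and transcripts are from GENCODE M21 (GRCm38, the same build as mm10), matched by symbol.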

Additional observations from a re-analysis of the deposited data

How the results depend on the processing

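None of the 10 effectors was called with limma or under 14 of the 16 alternatives. The exceptions were DESeq2, with 2 (Pak2 and Iqgap1), and the removal of single libraries, which gave 0 to 2 (Pak1 and Pak2 without KO 2). Of the other pathway genes limma called 0, DESeq2 called 12, and leaving out each library gave 0 to 19. Among all genes limma called 1, which was 2 with a pseudocount of 10, 0 with array weights (3328 at an unadjusted p under 0.05), 0 with every gene above 0 tested (3963), 2 with edgeR, 2326 with DESeq2, 6 with the replicate block, 0 with the length and GC trend removed (2253), and 0 to 3024 without each library. The count without KO 2 was 3024, and the cause was not tested.

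The median log2 difference of the 10 effectors, 0.07, ranged from -0.068 to 0.086 without each library, where the lowest is that without KO 3, and was -0.30 with the length and GC trend removed. Signs turned for Cdc42se2 (0.019 with upper-quartile scaling, 0.15 with the trend removed, and -0.085 to 0.071 without each library, above 0 without WT 3 or KO 2), for Wasl (-0.31 to 0.83 without each library, the lowest without KO 3) and, with the trend removed, for Was (-0.27), Cdc42ep4 (-0.46) and Baiap2 (-0.35). Pak1, Pak2, Iqgap1, Cdc42ep3 and Cdc42se1 kept their sign under all 16. TMM and upper-quartile scaling moved the median of all genes from 0.02 to 0.01 and 0.05.

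Replicate numbers 2 and 3 occur in both groups, and no label says that a number marks a shared batch. Deviations from the group means correlated at -0.06 for WT 2 with KO 2 and at -0.18 for WT 3 with KO 3. In a group of 2 libraries, the deviations of KO 2 and KO 3 mirror each other. These correlations therefore cannot tell whether a number marks a shared batch. With the replicate block, which leaves WT 1 without a partner, the effectors' count stayed at 0, and the adjusted p-values from limma were 0.474 for Pak1, 0.331 for Pak2 and 0.266 for Iqgap1. With 2 KO libraries, a fit without KO 2 or KO 3 takes the lone library to vary like WT.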

Other observations

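Fgd5, an exchange factor for CDC42 that marks HSCs, was singled out after its values were seen. Its normalized read counts were 318, 223 and 67.7 in WT 1 to WT 3, then 90.5 in KO 2 and 598 in KO 3. The spread was wide within both groups (log2 difference 0.46, SE 0.84, limma adjusted p = 0.742).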
